A study of Mus musculus with 6 samples.

Results

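The proteasome genes of mouse hematopoietic stem cells (HSCs) are described here in 6 RNA libraries, of which 3 came from control mice (Ctrl) and 3 from mice on long-term ferulic acid (FA), called l-FA. The genes were taken by name: every protein-coding gene whose symbol begins with Psma, Psmb, Psmc, Psmd, Psme, Psmf or Psmg and a digit, except the immunoproteasome genes Psmb8, Psmb9 and Psmb10. This gave 47 of the 27198 listed genes, and all 47 passed the filter on low counts that left 16520 genes for testing. The name reaches further than the 26S proteasome itself: 31 of the 47 encode its constitutive subunits. The other 16 encode assembly chaperones, activators, a protein that binds an activator, an inhibitor, a testis form of an alpha subunit and a protein that only shares the name. All mice were wild type C57BL/6 males of 8 to 10 weeks. The l-FA group was injected with FA into the peritoneum daily over 30 days at a dose of 50 mg/kg, the Ctrl group received solvent, and neither group was irradiated. HSCs were sorted from bone marrow as lineage-, Sca-1+, c-Kit+, Flk2- (CD135-) and CD34- cells. The number of mice behind each library is not stated, so n below counts libraries, and p-values measure only the spread between libraries, which may be technical.

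The 26S proteasome is the protease that degrades proteins tagged with ubiquitin. Its 20S core is a barrel of outer alpha rings and inner beta rings, of which the beta rings carry the proteolytic sites, and its 19S cap binds ubiquitin chains, removes them and threads the substrate into the barrel with a ring of ATPases. HSCs are known for a low rate of protein synthesis and for sensitivity to disturbed protein turnover.

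In l-FA HSCs, 31 of the 47 proteasome genes were lower and 2 were higher (edgeR's quasi-likelihood test, Benjamini-Hochberg adjusted p under 0.05 over all genes tested), and 14 did not pass the test. The 31 lower genes were 66.0% of the proteasome genes, whereas 25.0% of all genes tested were lower. Of all genes tested, 25.5% were higher, and calls in either direction made up 50.5%. Abundant genes were called more often: among the 8267 genes with a mean of at least 20 CPM (counts relative to the library total, scaled by TMM), which include 45 of the 47, 32.0% were lower, 25.3% were higher and 57.3% were called either way. The falls were small. The median log2 fold change (l-FA over Ctrl) of the proteasome genes was -0.22, beside 0.003 for all genes tested and -0.033 for the abundant genes. Their quartiles were -0.325 and -0.103, beside -0.271 and 0.317 for all genes tested and -0.232 and 0.183 for the abundant genes. The log2 fold change was below zero in 40 of the 47. None passed a 2-fold limit, the limit named in the methods of the study, which 11.8% of all genes tested passed together with the adjusted p. Few of the abundant genes passed it either. Their log2 fold change was -0.974 at percentile 1.5 and 0.886 at percentile 99, both inside 2-fold.

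**Figure D1:**
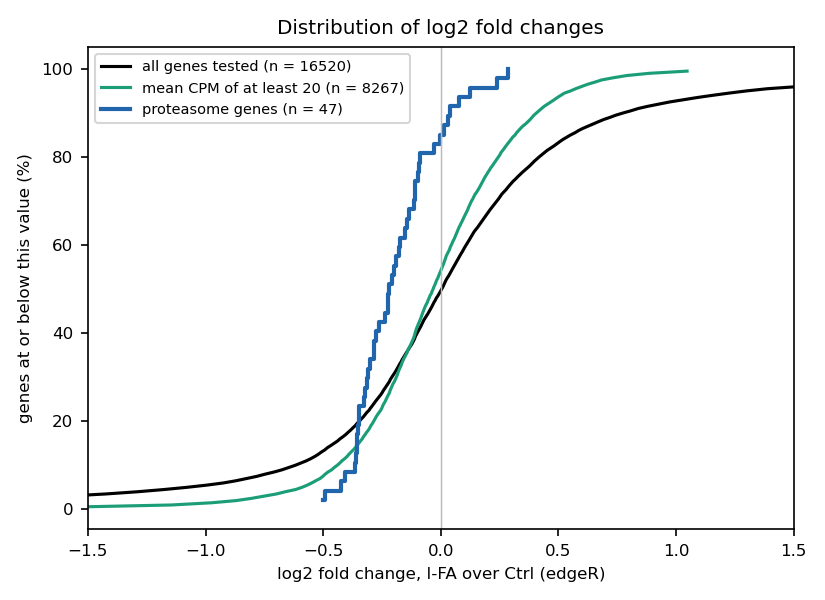
Cumulative share of genes (vertical axis, percent) at or below each log2 fold change of l-FA over Ctrl (horizontal axis, edgeR) for all 16520 genes tested, the 8267 genes with a mean CPM of at least 20 and the 47 proteasome genes. The line of the proteasome genes is steeper and lies to the left of both others over most of its range, with a median of -0.22, and it does not reach the tails of the other lines.

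The shift was seen in each library. Relative to the Ctrl mean, the median of the 47 genes on the log2 scale was -0.011, -0.010 and 0.013 in the Ctrl libraries and -0.181, -0.228 and -0.205 in the l-FA libraries. The l-FA libraries thus lay together and apart from the Ctrl libraries, with a standard deviation between libraries of one group of 0.0194. The genes took 0.797% to 0.808% of all counts in Ctrl and 0.717% to 0.724% in l-FA. All 3 l-FA libraries were below all 3 Ctrl libraries for 35 of the 47 genes, which is 74.5%, beside 29.9% of all genes tested and 36.8% of the abundant genes. All 3 were above Ctrl for 4 genes, Psmd8, Psmd9, Psme4 and Psmf1, beside 30.4% of all genes tested. When the counts of the 47 genes were compared library by library, the median chi-square was 0.569 to 1.75 within a group and 11.8 to 32.2 across groups. Over all genes tested it was 0.888 to 1.07 within a group and 8.19 to 8.83 across groups, and pure counting error gives 0.455. A high value across groups was thus general, and the chi-square also grows with the counts of a gene.

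**Figure D2:**
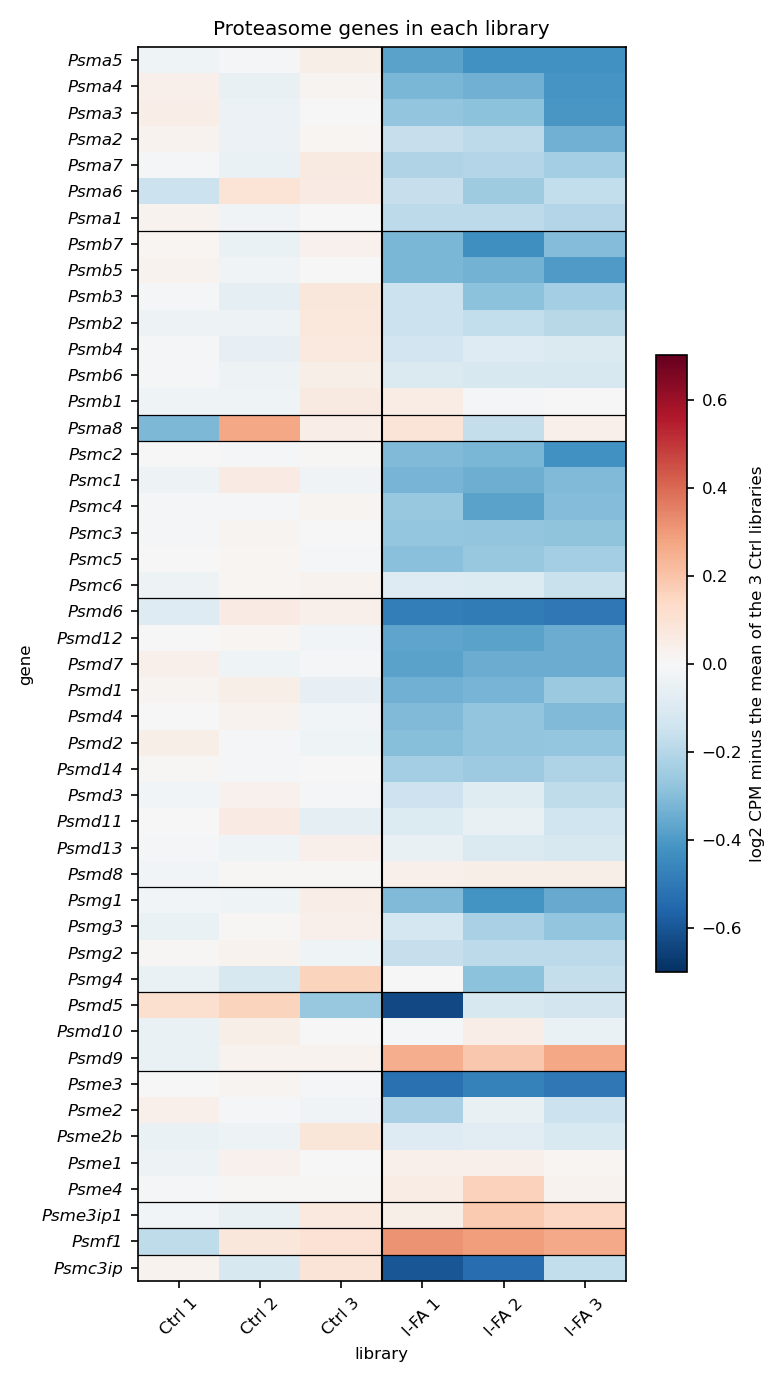
TMM-scaled log2 CPM of each of the 47 proteasome genes (rows, by role) in each of the 6 libraries (columns), as the difference from the mean of the 3 Ctrl libraries. The l-FA columns are below zero in most rows, with medians of -0.181, -0.228 and -0.205.

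Depth was even, with 19287735 to 20380610 counts per library and 120 to 8033 counts per proteasome gene and library. The sort label was set against marker genes. Of 10 HSC genes, 7 were higher and 1 lower in l-FA, and their summed level was 1801 to 1871 CPM in Ctrl and 2056 to 2074 CPM in l-FA, with none of the 10 at 0. Of 10 neutrophil and monocyte genes, 8 were lower and 2 higher, with a median log2 fold change of -1.60 and a summed level of 23130 to 24070 CPM in Ctrl and 6128 to 6432 CPM in l-FA, again with none at 0. Most of that sum was Mpo, at 18120 to 19100 CPM in Ctrl and 4758 to 5086 CPM in l-FA. The 2 higher genes were Lyz2 (0.30) and Csf1r (0.10). Of 10 proliferation genes, 5 were lower and none higher, with a summed level of 3481 to 3620 CPM in Ctrl and 3278 to 3316 CPM in l-FA. Of 10 lymphoid genes, Cd3g was not analysed here, 5 were tested, 1 was lower and 1 higher, and Ms4a1, Cd3e and Cd8a had no count in at least 1 library. Their summed level was 553 to 576 CPM in Ctrl and 318 to 328 CPM in l-FA. Nearly all of it was Nkg7, the lower gene, at 542 to 563 CPM in Ctrl and 302 to 311 CPM in l-FA. The higher gene was Cd4, with a log2 fold change of 1.76. Of 8 erythroid genes, 1 was lower and 3 were higher, with 88.4 to 94.8 CPM in Ctrl and 104 to 105 CPM in l-FA. These lists differed between the groups as well, and their part in the fall of the proteasome genes was not tested. In bulk libraries, fewer cells of a type and less RNA per cell cannot be told apart.

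Scaling bears on shifts of this size. The TMM factors were 0.968 to 0.979 in Ctrl and 1.025 to 1.032 in l-FA. With total counts and no scaling factor, 22 proteasome genes were lower and 5 higher, with a median log2 fold change of -0.14, but the median of all genes tested then rose from 0.003 to 0.082. A scaling factor shifts all genes alike and so leaves the difference between these medians as it is. No called gene changed direction, and the 3 further higher genes were Psmd8, Psme1 and Psme3ip1.

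**Figure D3:**
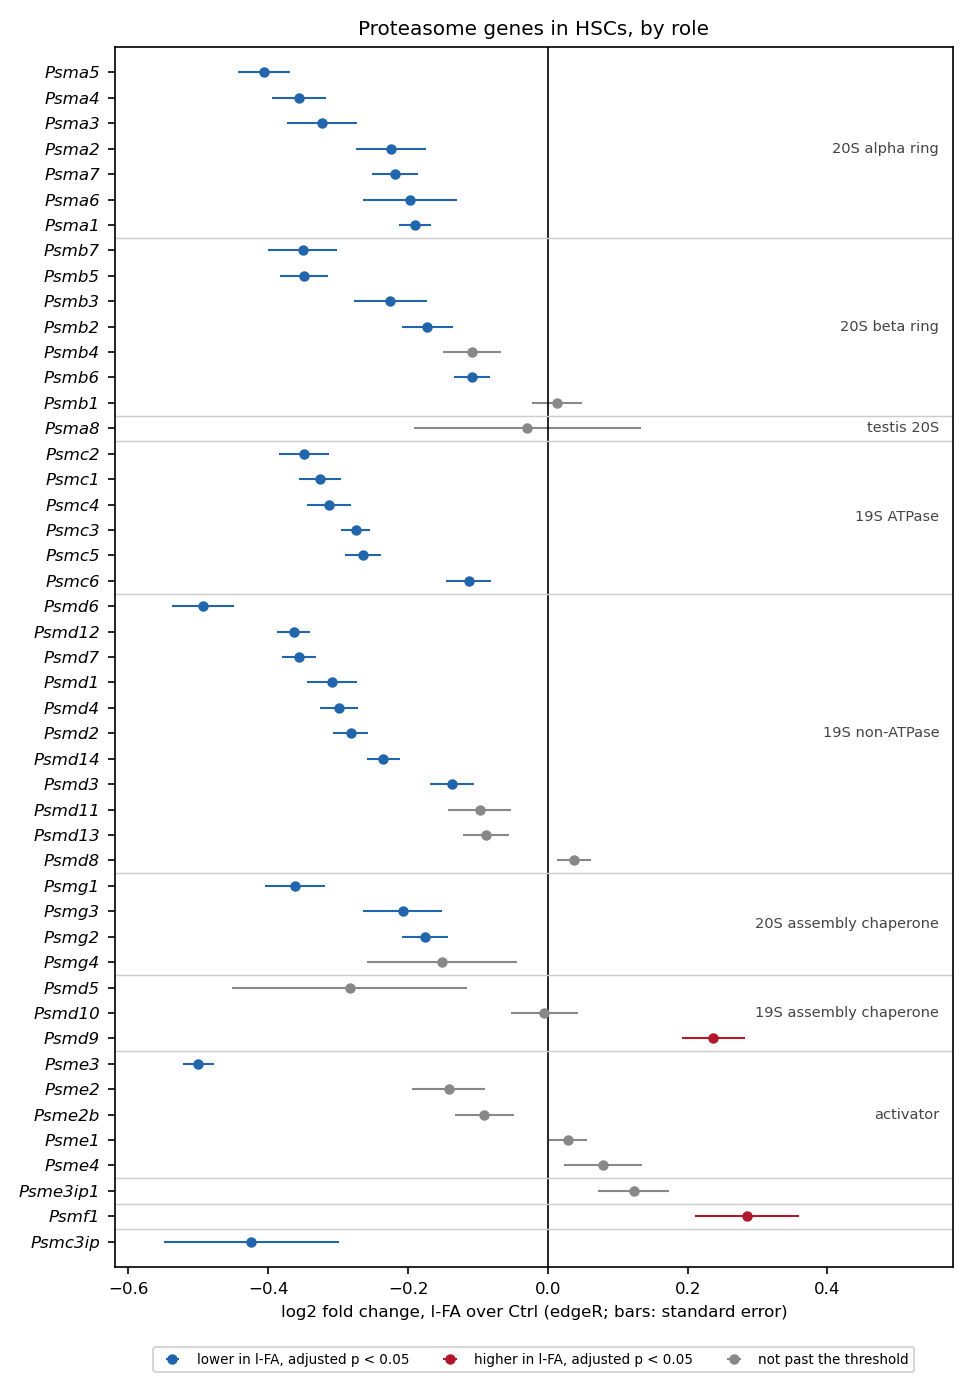
Log2 fold change of l-FA over Ctrl (horizontal axis, edgeR, 3 libraries per group) for the 47 proteasome genes (vertical axis, by role), with bars for 1 standard error and colours for the call. Of the alpha-ring, beta-ring, ATPase and non-ATPase genes 26 of 31 are lower and none is higher (with no scaling factor Psmd8 was higher), while the chaperones and activators lie on both sides of zero.

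Promoter sequences were read for genes whose windows held a motif of a factor known to act on proteasome genes. TGACNNNGC is the core of the antioxidant response element, which is bound by NRF1 (Nfe2l1) and NRF2 (Nfe2l2), and CCAAT is the motif of NF-Y. RefSeq windows of 300 bases (250 before and 50 after the start, GRCm38.p6) were matched for 39 of the 47 genes. Both strands were searched, and matches of the motifs can share no more than an end letter. TGACNNNGC was in 6 of 39 windows (15.4%), those of Psmb5, Psmb6, Psmc6, Psmd9, Psmd12 and Psme4, beside 14.0% of the 27025 windows of all genes. CCAAT was in 14 of 39 (35.9%), beside 41.1%. Of the 25 lower genes with a window, 4 held TGACNNNGC and 12 held CCAAT, and of the 14 others 2 and 2 did. The 250 bases before the start are shown for Psmd12 (chr11:107479278-107479527, plus strand) and Psmb5 (chr14:54617996-54618245, minus strand), lower genes with TGACNNNGC, and for Psme3 (chr11:101315963-101316212, plus strand) and Psmc1 (chr12:100109952-100110201, plus strand), lower genes with CCAAT. Capitals mark the motif, which in Psmd12 and Psme3 lies on the opposite strand. Counted from the start, its first printed base is at -247 in Psmd12, -47 in Psmb5, -14 in Psme3 and -175 in Psmc1.
Psmd12: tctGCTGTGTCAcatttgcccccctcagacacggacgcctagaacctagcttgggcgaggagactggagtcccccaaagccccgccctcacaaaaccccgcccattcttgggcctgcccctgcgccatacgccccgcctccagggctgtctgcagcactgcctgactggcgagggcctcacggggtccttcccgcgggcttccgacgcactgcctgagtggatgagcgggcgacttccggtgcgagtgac
Psmb5: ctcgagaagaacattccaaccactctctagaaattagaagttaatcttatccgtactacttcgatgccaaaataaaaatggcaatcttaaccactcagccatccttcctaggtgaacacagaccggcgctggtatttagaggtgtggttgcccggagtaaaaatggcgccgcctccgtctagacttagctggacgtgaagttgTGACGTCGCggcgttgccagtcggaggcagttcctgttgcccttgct
Psme3: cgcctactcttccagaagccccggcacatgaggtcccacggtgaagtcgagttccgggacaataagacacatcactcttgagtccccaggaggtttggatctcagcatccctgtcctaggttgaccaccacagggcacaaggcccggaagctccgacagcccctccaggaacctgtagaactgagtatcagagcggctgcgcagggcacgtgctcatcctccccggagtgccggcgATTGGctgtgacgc
Psmc1: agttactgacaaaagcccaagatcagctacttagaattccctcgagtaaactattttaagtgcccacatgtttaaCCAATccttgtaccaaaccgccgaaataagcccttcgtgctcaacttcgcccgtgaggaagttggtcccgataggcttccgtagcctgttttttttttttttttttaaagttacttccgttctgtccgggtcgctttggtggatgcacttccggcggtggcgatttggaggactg

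The alpha ring gates the core, and all 7 of its genes were lower in l-FA, with log2 fold changes of -0.41 to -0.19. Psma5 (ENSMUSG00000068749, chr3:108164242-108187290 in GRCm39, as are all gene positions below) was at 81.1, 82.1 and 85.4 CPM in Ctrl and 64.0, 61.7 and 61.8 CPM in l-FA. The groups did not overlap, and the log2 fold change was -0.41 (SE 0.0374, adjusted p = 2.53e-04). Psma4 (ENSMUSG00000032301, chr9:54858074-54865314) was at 171, 161 and 169 CPM in Ctrl and 134, 132 and 125 CPM in l-FA. It too was lower in every l-FA library, with a log2 fold change of -0.36 (SE 0.0382, adjusted p = 4.59e-04). Psma3 followed with -0.32, and Psma1, Psma2, Psma6 and Psma7 lay between -0.22 and -0.19. Of these, Psma6 passed narrowly, with an adjusted p of 0.0471 and a log2 fold change of -0.20 (SE 0.0672). It lost the call without the second or the third Ctrl library or any l-FA library, with adjusted p of 0.0922 to 0.149.

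The beta ring carries the catalytic sites, and 5 of its 7 genes were lower, with a median log2 fold change of -0.17. Psmb5, the subunit with chymotrypsin-like activity (ENSMUSG00000022193, chr14:54851576-54855479), was at 122, 118 and 120 CPM in Ctrl and 96.1, 95.6 and 91.4 CPM in l-FA, a log2 fold change of -0.35 (SE 0.0340, adjusted p = 3.13e-04). Psmb7, with trypsin-like activity (ENSMUSG00000026750, chr2:38478048-38534099), was at 62.2, 59.5 and 62.9 CPM in Ctrl and 49.3, 45.6 and 49.9 CPM in l-FA, a log2 fold change of -0.35 (SE 0.0497, adjusted p = 1.39e-03). Psmb6, with caspase-like activity (ENSMUSG00000018286, chr11:70416193-70418684), was at 288, 283 and 298 CPM in Ctrl and 270, 268 and 268 CPM in l-FA, a log2 fold change of only -0.11 (SE 0.0262, adjusted p = 0.0134). All 3 catalytic genes were thus lower in every l-FA library than in any Ctrl library. The 95% intervals of the log2 fold change were -0.43 to -0.27 for Psmb5, -0.47 to -0.23 for Psmb7 and -0.17 to -0.05 for Psmb6, so that of Psmb6 lay apart from the others, though the difference between genes was not tested. The call of Psmb6 was lost without any one l-FA library (adjusted p of 0.0523 to 0.0660). The noncatalytic Psmb3 and Psmb2 were lower with log2 fold changes of -0.23 and -0.17. Psmb4 had -0.11 (adjusted p = 0.0682, and 0.0361 without the second Ctrl library), and Psmb1 had 0.01 with a 95% interval of -0.07 to 0.10 (adjusted p = 0.789).

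The ATPases of the 19S base unfold the substrate, and all 6 genes were lower, with a median log2 fold change of -0.29. Psmc2, Psmc1 and Psmc4 had the largest falls of the ring, with log2 fold changes of -0.35 (SE 0.0359), -0.33 (SE 0.0301) and -0.31 (SE 0.0320). Psmc3 and Psmc5 followed with -0.28 and -0.26. Psmc6 had the smallest, -0.11 (SE 0.0324, adjusted p = 0.0257), and lost the call when any library but the first Ctrl library was left out (adjusted p of 0.0561 to 0.112).

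Of the 11 non-ATPase genes of the 19S cap, 8 were lower and none was higher. Psmd6, a lid subunit (ENSMUSG00000021737, chr14:8348779-8357589), had the largest fall among all 31 constitutive subunits. It was at 141, 156 and 154 CPM in Ctrl and 107, 107 and 106 CPM in l-FA, a log2 fold change of -0.49 (SE 0.0443, adjusted p = 2.30e-04). The l-FA libraries were nearly equal and all below Ctrl. The lid subunit Psmd12 (ENSMUSG00000020720, chr11:107370310-107395188) was at 221, 222 and 217 CPM in Ctrl and 170, 170 and 173 CPM in l-FA, with a log2 fold change of -0.36 (SE 0.0237, adjusted p = 7.04e-05). Psmd7, the partner of the deubiquitinase Psmd14 (ENSMUSG00000039067, chr8:108307013-108315096), was at 407, 390 and 396 CPM in Ctrl and 307, 313 and 313 CPM in l-FA, with a log2 fold change of -0.36 (SE 0.0242, adjusted p = 8.34e-05). In both, the gap between the groups was larger than the range within either group. The scaffold subunits Psmd1 and Psmd2 had -0.31 and -0.28, the ubiquitin receptor Psmd4 had -0.30, Psmd14 had -0.24 and Psmd3 had -0.14. Psmd11 (-0.10, adjusted p = 0.120) and Psmd13 (-0.09, adjusted p = 0.0626) did not pass. Psmd8 stood on the other side of zero with 0.04, a 95% interval of -0.02 to 0.10 and an adjusted p of 0.238.

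Over the cap as a whole, 14 of 17 genes were lower with a median log2 fold change of -0.28, and over the core 12 of 14 with a median of -0.22. On the per-length scale of the deposited FPKM, which carries no scaling factor, the sum over the 17 cap genes was 1011, 1017 and 1014 in Ctrl and 880, 874 and 879 in l-FA. For the 14 core genes it was 882, 880 and 929 in Ctrl and 835, 812 and 803 in l-FA. Both sums were lower in every l-FA library. Their ratio within a library was 1.146, 1.155 and 1.091 in Ctrl and 1.053, 1.076 and 1.094 in l-FA. The third l-FA library lay just above the third Ctrl library, so the groups overlapped.

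The genes of one complex were listed at very different levels. On the FPKM scale in Ctrl, the 31 subunit genes ran from 158 ± 3.72 (SD, n = 3) for Psmd7 and 156 ± 7.75 for Psmb2 to 10.7 ± 0.358 for Psma3 and 7.18 ± 0.269 for Psmd11, a 22.1-fold range. The median was 57.7 FPKM for the core genes and 42.9 FPKM for the cap genes. Of the 30 pairs of neighbours in this order, 12 overlapped in their Ctrl libraries and 18 did not. The lengths behind these levels are those of whole gene models, so a long model lowers the listed level. They are 2441 bases for Psmd7 beside 6255 bases for Psma3 and 10333 bases for Psmd11. Both also have near-identical copies, between which counting can split reads. The copy Gm13835 held 339% as many counts as Psma3, and A730017L22Rik held 41.9% as many as Psmd11. The order of the subunit genes is one of listed FPKM rather than of subunit RNA.

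**Figure D4:**
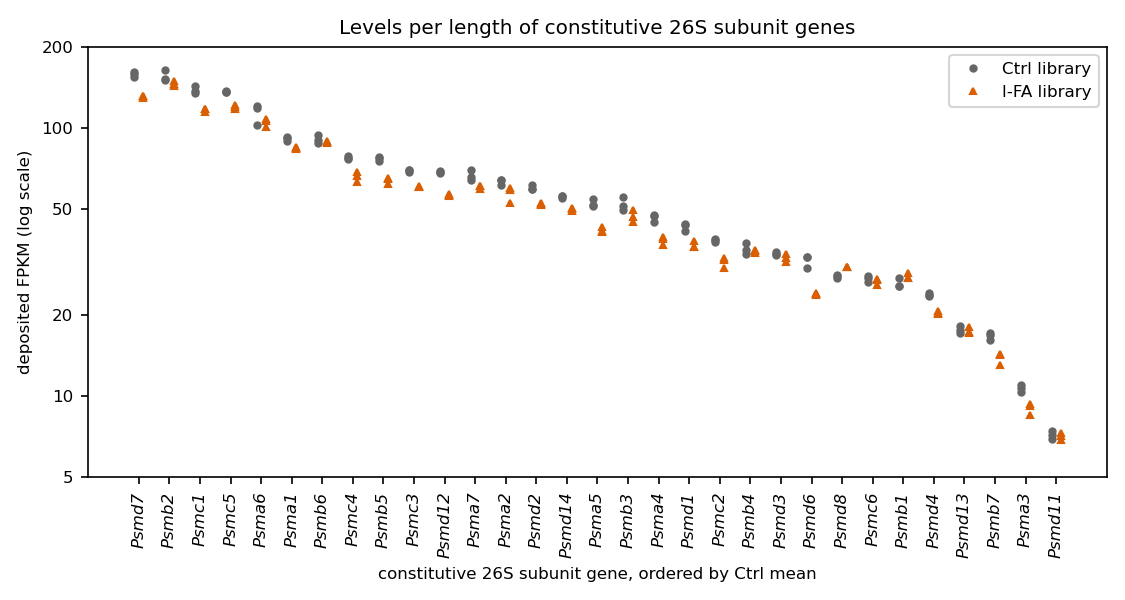
Deposited FPKM (vertical axis, logarithmic) of the 31 constitutive subunit genes (horizontal axis) in each library. The genes are in the order of their Ctrl means, with separate markers for Ctrl and l-FA libraries. The levels run over a 22.1-fold range from Psmd7 to Psmd11, and the difference between groups is small beside the difference between genes.

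Outside the constitutive subunits, 5 of 16 genes were lower, 2 were higher and 9 did not pass. Among all genes tested 25.0% were lower and 25.5% higher, and among the abundant genes 32.0% and 25.3%. The share of lower genes among these 16 was thus near that of the abundant genes. The chaperones Psmg1 to Psmg4 assemble the alpha ring, and 3 of these 4 genes were lower. Psmg1 (ENSMUSG00000022913, chr16:95781133-95792160) was at 83.7, 83.1 and 87.5 CPM in Ctrl and 68.4, 63.3 and 66.2 CPM in l-FA, without overlap and with a log2 fold change of -0.36 (SE 0.0432, adjusted p = 7.07e-04). Psmg3 and Psmg2 had -0.21 and -0.18, of which Psmg3 lost the call without the second or the third library of either group (adjusted p of 0.0563 to 0.0777), and Psmg4 had -0.15 (adjusted p = 0.284). The chaperones of the 19S base, Psmd5, Psmd9 and Psmd10, did not move together. Psmd9 (ENSMUSG00000029440, chr5:123307476-123388194) was at 41.9, 44.1 and 44.1 CPM in Ctrl and 51.7, 49.4 and 52.3 CPM in l-FA. It was higher in every l-FA library, with a log2 fold change of 0.24 (SE 0.0452, adjusted p = 0.00493). Psmd10, also called gankyrin, had -0.005 with a 95% interval of -0.12 to 0.11. Psmd5, named here after its values were seen, was uneven within both groups, at 227, 234 and 174 CPM in Ctrl and 135, 194 and 192 CPM in l-FA, and its log2 fold change of -0.28 (SE 0.168) had an adjusted p of 0.208.

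Activators replace the 19S cap at the ends of the core, and their genes did not move together. Psme3, which encodes the nuclear PA28 gamma (ENSMUSG00000078652, chr11:101207039-101214363), had the largest fall of all 47 genes. It was at 394, 399 and 391 CPM in Ctrl and 275, 284 and 278 CPM in l-FA, with a log2 fold change of -0.50 (SE 0.0226, adjusted p = 2.03e-05), which is 29.3% lower. Psme1, which encodes the interferon-inducible PA28 alpha (ENSMUSG00000022216, chr14:55815580-55818986), was at 165, 173 and 169 CPM in Ctrl and 173, 173 and 170 CPM in l-FA. Its groups overlapped, and its log2 fold change of 0.03 had a 95% interval of -0.04 to 0.09 (adjusted p = 0.430). Psme2, which encodes PA28 beta (ENSMUSG00000079197, chr14:55824898-55828570), was at 74.4, 72.0 and 71.4 CPM in Ctrl and 62.1, 70.0 and 65.3 CPM in l-FA, and its log2 fold change of -0.14 did not pass (SE 0.0519, adjusted p = 0.0594, and 0.0291 without the second l-FA library). Psme4, which encodes PA200 (ENSMUSG00000040850, chr11:30721726-30830361), was at 28.8, 29.2 and 29.2 CPM in Ctrl and 30.1, 32.5 and 29.5 CPM in l-FA, with a log2 fold change of 0.08 (SE 0.0553, adjusted p = 0.279). Psme2b, a near-identical relative of Psme2, had -0.09 (adjusted p = 0.121), and Psme3ip1, whose protein binds PA28 gamma, had 0.12 (adjusted p = 0.0872, and 0.0334 without the first l-FA library). Within a library, the ratio of Psme1 to Psme3 on the FPKM scale was 0.237, 0.244 and 0.244 in Ctrl and 0.356, 0.344 and 0.345 in l-FA. This ratio does not depend on scaling between libraries, and it was chosen after the values were seen.

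Psmf1 encodes PI31, a protein that inhibits the core in vitro (ENSMUSG00000032869, chr2:151557732-151586106), and was the second gene that was higher. It was at 77.1, 92.0 and 93.3 CPM in Ctrl and 108, 107 and 105 CPM in l-FA, with a log2 fold change of 0.28 (SE 0.0743, adjusted p = 0.0181). The l-FA libraries lay close together above Ctrl, whose first library was the lowest. Psmc3ip encodes a protein of meiotic recombination that carries the name through its binding of PSMC3 (ENSMUSG00000019303, chr11:100982649-100986262). It was at 27.9, 25.5 and 29.2 CPM in Ctrl and 18.1, 18.996 and 24.4 CPM in l-FA, a log2 fold change of -0.42 (SE 0.125, adjusted p = 0.0284). The call was lost without the first or the third Ctrl library or the first or second l-FA library (adjusted p of 0.0689 to 0.0926). Psma8, the alpha subunit of the testis proteasome (ENSMUSG00000036743, chr18:14839208-14895358), was at 6.25, 9.38 and 8.03 CPM in Ctrl and 8.29, 6.93 and 7.96 CPM in l-FA. It was named after its values were seen, for the lowest level of the 47 genes and a spread of just under 1.5-fold among its Ctrl libraries, and its log2 fold change of -0.03 had a 95% interval of -0.42 to 0.36.

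The immunoproteasome genes Psmb8, Psmb9 and Psmb10 encode the inducible counterparts of Psmb5, Psmb6 and Psmb7, and none of the 3 passed the test. Their log2 fold changes were -0.01 (adjusted p = 0.870), 0.08 (adjusted p = 0.172) and -0.11 (adjusted p = 0.0765), beside -0.35, -0.11 and -0.35 for their constitutive counterparts. On the FPKM scale within a library, the ratio of Psmb8 to Psmb5 was 1.196, 1.205 and 1.303 in Ctrl and 1.640, 1.429 and 1.605 in l-FA. Psmb9 over Psmb6 was 0.200, 0.202 and 0.207 in Ctrl and 0.236, 0.226 and 0.229 in l-FA. Psmb10 over Psmb7 was 1.90, 2.06 and 1.95 in Ctrl and 2.39, 2.46 and 2.13 in l-FA. All 3 ratios were higher in every l-FA library than in any Ctrl library, by 0.335, 0.184 and 0.242 on the log2 scale. Each had an exact permutation p of 0.1 (two-sided, 3 against 3 libraries, 0.1 adjusted over the 3 ratios), which is the smallest p this design allows. The ratios were chosen with the values known, including the falls of Psmb5, Psmb6 and Psmb7. Their p-values are therefore no independent support for a difference. The genes below the line also carry limits of counting. Gm3375, a near-identical copy, held 36.4% as many counts as Psmb5, whose log2 fold change was -0.30 with it added. Psmb7 overlaps Nek6 by position. The ratios were not recalculated for either. Of 10 interferon-induced genes, 9 were higher in l-FA and none lower, with a median log2 fold change of 0.79 and a summed level of 394 to 406 CPM in Ctrl and 613 to 626 CPM in l-FA. The part of these genes in the ratios was not tested.

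**Figure D5:**
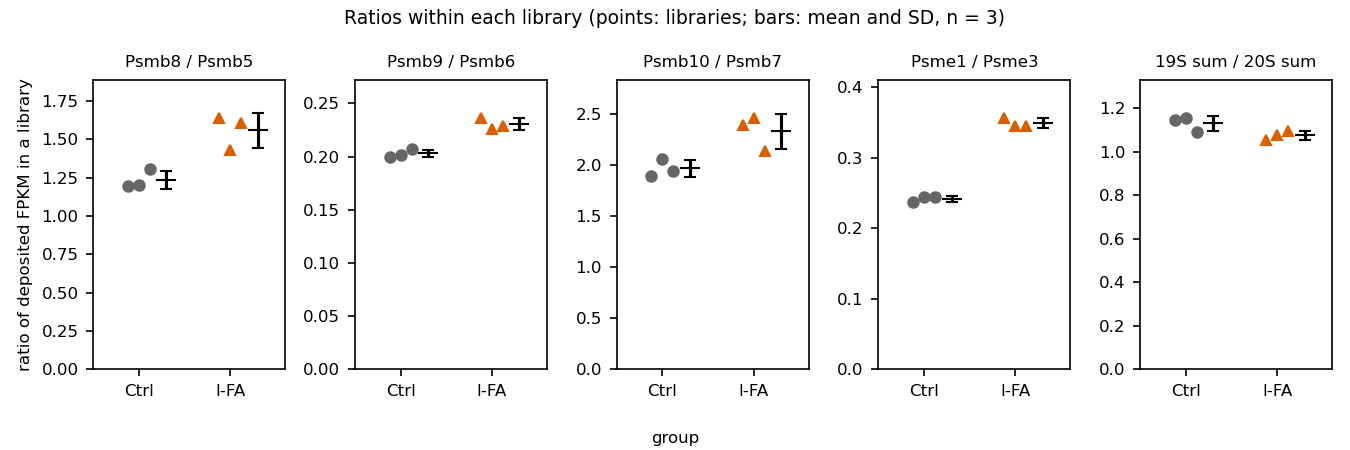
Ratios of deposited FPKM within each library (vertical axes, no unit) for each group, with points for libraries and bars for mean and SD (n = 3). Each immunoproteasome gene over its constitutive counterpart is higher in all l-FA libraries, Psme1 over Psme3 has a mean of 0.242 in Ctrl and 0.349 in l-FA, and the cap-to-core ratio overlaps between groups.

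Other genes of the pathway were read from lists outside the name rule. Of 38 ubiquitin-proteasome genes tested, which include the 3 immunoproteasome genes, 19 were lower and 4 higher, beside 25.0% lower and 25.5% higher among all genes tested, and their median log2 fold change was -0.18. Both 19S subunits that the name rule misses were lower: the ubiquitin receptor Adrm1 with -0.18 (SE 0.0457, adjusted p = 0.0167) and the small subunit Sem1 with -0.48 (SE 0.0729, adjusted p = 0.00187). The deubiquitinases that bind the cap were also lower, Usp14 with -0.50 and Uchl5 with -0.36, while the cap-bound ligase Ube3c was higher with 0.20. Among the ubiquitin shuttle receptors, which carry tagged proteins to the cap, Ubqln1 (-0.46), Ubqln4 (-0.49) and Rad23b (-0.21) were lower. Of 6 genes of the unfoldase p97 and its cofactors, Vcp (-0.20), Nploc4 (-0.50), Nsfl1c (-0.33) and Faf1 were lower and Faf2 (0.30) was higher. Faf1 had the largest change of these 38 genes, with a log2 fold change of -1.53 (SE 0.0498, adjusted p = 6.07e-06).

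Among the genes that encode ubiquitin, Ubb was higher (0.09) and Rps27a lower (-0.28), and the E1 enzyme gene Uba6 was lower with -0.20. Pomp, which encodes the maturation factor of the core, was at 133, 75.0 and 91.2 CPM in Ctrl and 91.4, 91.9 and 89.2 CPM in l-FA, so the first Ctrl library stood alone, and its log2 fold change was -0.13 (adjusted p = 0.601). Nfe2l1, which encodes the factor NRF1 that raises proteasome genes when proteolysis falls short, had 0.09 (SE 0.0991, adjusted p = 0.508), and Nfe2l2 had 0.06 (adjusted p = 0.300). Nfya and Nfyc, which encode NF-Y subunits, were lower with -0.77 (SE 0.142, adjusted p = 0.00429) and -0.29 (SE 0.0450, adjusted p = 0.00205). Ngly1, whose enzyme processes NRF1, was higher with 0.14.

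Many proteasome genes have near-identical copies elsewhere in the genome, between which counting can split reads. With a minimum of 95% identity over 300 bases, chosen after the data were seen, 11 of the 47 genes had a listed copy, and in 8 of them the copies held over 5% as many counts as the gene. The processed pseudogene Gm13835 is identical to Psma3 over 685 bases and held 339% as many counts as Psma3 itself. Its log2 fold change was -0.32 (SE 0.0228, adjusted p = 9.76e-05), as that of Psma3 was, and with all copies added Psma3 had -0.31. The copies of Psma5, Psma5-ps and Gm12989, held 56.5% and 69.1% of its counts and had -0.42 each. Levels of Psma3 and Psma5 taken from the gene alone are therefore uncertain. For Psmb5 the copy Gm3375 held 36.4% of its counts and had -0.19 (adjusted p = 0.0261), and the fall of Psmb5 went from -0.35 to -0.30 with it added.

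A730017L22Rik, 97.9% identical to Psmd11 over 1501 bases, was higher with 0.17 (SE 0.0576, adjusted p = 0.0454), and Psmd11 with its copy added had -0.01 (adjusted p = 0.846) in place of -0.10. Gm5422, a copy of Psmd2, was uneven, with 447, 9 and 77 counts in Ctrl and 495, 342 and 412 counts in l-FA, and Psmd2 with it added had -0.22 (adjusted p = 0.00350) in place of -0.28. Psme2 and Psme2b are 99.4% identical over 794 bases, and neither passed alone. Their summed counts were 3523, 3391 and 3800 in Ctrl and 3529, 3547 and 3397 in l-FA, with a log2 fold change of -0.11 (SE 0.0327, adjusted p = 0.0289). By position, 20 of the 47 genes overlap another listed gene, and since the strand setting of the counting is not given in the sources used here, reads of such pairs cannot be told apart. Among them are Psmb7 with Nek6, Psmc3ip with Mlx, Psmd13 with Sirt3 and Psme3ip1 with Rspry1.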

How the data were processed

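RNA of HSCs was sequenced after cDNA amplification. For 6 libraries, the authors deposited unnormalized counts for each gene and FPKM values, which divide those counts by gene length and total counts. The submitters' processing notes name HISAT2, SAMtools 1.3.1, StringTie, edgeR and the build GRCm39. The counter, annotation release and strand setting are not given in the sources used here, and the protocol in the labels names a kit for single cells although the cells were sorted in bulk.

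Groups and replicate numbers followed the labels. The quasi-likelihood test of edgeR 4.0.16 (R 4.3.3) was applied to the counts after filterByExpr and TMM scaling, and p-values were adjusted by Benjamini-Hochberg over 16520 genes. The code was tested on simulated data, with 50 genes at each fold change drawn from all 16520 whatever their level. It recovered 1 of 50 at 1.25-fold, 20 at 1.5-fold, 32 at 2-fold and 46 at 4-fold. It also called 12 unchanged genes there, and 4 where no gene was changed. A gene that was not called may thus still differ by a small amount. DESeq2 1.42.0, the tool of the study's methods, was an alternative, as were other scalings, filters, a replicate block, each library left out, added pseudogene counts, a 2-fold limit and a test against a 1.2-fold change. Near-identical copies were found among GENCODE M21 transcripts, from which no coordinates were taken. Promoters were RefSeq windows of GRCm38.p6, whereas gene positions are in GRCm39.

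The genes and lists were chosen with earlier results of these data known. Values per library are given for the 8 largest changes in each direction past adjusted p 0.05, for Psmb5, Psmb6 and Psmb7, for Psme1 to Psme4 and for genes whose libraries of one group differed by 1.5-fold or more, of which there were none. Related genes were named if past the threshold, as were Nfe2l1, Adrm1, Sem1, Pomp, Psmb8, Psmb9 and Psmb10. Nfe2l2, Psmd5 and Psma8 (values per library), the copies, the overlapping genes, the ratios and the promoters shown were chosen after values were seen. Amplified reads without molecular identifiers are not independent molecules, so chi-square values cover counting error only. Paaf1 was not analysed here, and some genes of the related lists are not reported by name.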

Additional observations from a re-analysis of the deposited data

How the results depend on the processing

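No called proteasome gene turned direction in any alternative. Of the 31 lower genes 22, and both higher genes, kept their call under all 16 alternatives (DESeq2, scalings, filters, the block, added copies, left-out genes and left-out libraries). The exceptions were Psma2, Psma6, Psmb2, Psmb3, Psmb6, Psmc3ip, Psmc6, Psmd3 and Psmg3, whose falls are the least firm here. With single libraries left out, 27 to 30 genes were lower and 2 to 3 higher, and the median log2 fold change was -0.231 to -0.185. It was -0.195 with upper-quartile scaling and -0.14 with no scaling factor, the setting (chosen after the data were seen) in which 22 genes were lower and 5 higher, with Psmd8, Psme1 and Psme3ip1 added. Minus the median of all genes it was -0.235 to -0.193 with single libraries left out. The constitutive subunits alone had 26 lower genes, 0 higher and a median of -0.265. A 2-fold limit left 0 lower and 0 higher genes, and the edgeR test against a 1.2-fold change left 10 lower and 0 higher. Genes that were not called crossed zero: Psmd10 had 0.019 with upper-quartile scaling, 0.003 with at least 10 counts in every library, 0.074 with no scaling factor, 0.005 with copies added and -0.029 to 0.029 with a library left out, Psma8 had 0.05 with no scaling factor and -0.174 to 0.112 with a library left out, and Psmb1 had -0.005 to 0.038 with a library left out.

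With the replicate number as a block, 28 genes were lower and 2 higher, and Psma6, Psmc6 and Psmg3 no longer passed. Deviations of same-numbered libraries correlated at 0.00393, -0.0106 and -0.0783 over all genes and at -0.452, 0.122 and -0.206 over the proteasome genes. These values showed no pairing by number, but 3 pairs of libraries cannot exclude it. The 3 libraries per group limit the tests, and Psmd5 and Psma8 had the widest standard errors of the log2 fold change, 0.168 and 0.162.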
